A study of Mus musculus with 33 samples.

Results

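The 30 genes described here make cholesterol, control how much of it is made, or move and remove it. They were listed by name and role, with no threshold on their values, though earlier results of these data were known. All 30 were found among the 41565 named entries of the expression table. Of these, 19 are enzymes of synthesis, 7 in the mevalonate pathway (*Acat2*, *Hmgcs1*, *Mvk*, *Pmvk*, *Mvd*, *Idi1*, *Fdps*), 3 in the formation of squalene and lanosterol (*Fdft1*, *Sqle*, *Lss*) and 9 on the way from lanosterol to cholesterol (*Cyp51*, *Tm7sf2*, *Lbr*, *Msmo1*, *Nsdhl*, *Hsd17b7*, *Ebp*, *Sc5d*, *Dhcr7*). A further 5 control the sterol regulatory element binding proteins (SREBPs; *Srebf1*, *Srebf2*, *Scap*, *Insig1*, *Insig2*), 3 move sterols inside the cell (*Stard4*, *Npc1*, *Npc2*) and 3 act in efflux or removal (*Abca1*, *Abcg1*, *Cyp46a1*).

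The brain makes nearly all of its own cholesterol, because lipoproteins of the blood do not cross the blood-brain barrier. When sterols in the endoplasmic reticulum are low, SCAP escorts the SREBPs to the Golgi, where they are cut, and the released fragment enters the nucleus and turns on the synthesis genes, whereas INSIG proteins hold SCAP back when sterols are plentiful. Neurons export surplus cholesterol after CYP46A1 has hydroxylated it, and oligodendrocytes place large amounts of it in myelin.

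Whole-tissue RNA was sequenced from 2 dissected regions of wild-type C57BL/6 female mice, the preoptic area (POA) and the posterior hypothalamus (PH). Ovaries had been removed on both sides in adulthood, at 3 to 4 months of age (ovariectomy, OVX), and tissue was taken 14 days or 4 months later. Intact mice, called sham in the sample titles and intact in the genotype label and in the study's methods, served as controls and were killed in diestrus. The PH gave 4 intact, 6 14-day and 6 4-month libraries, and the POA gave 5, 6 and 6. No transgene is stated for any group. On the day of surgery the OVX mice had isoflurane anesthesia, slow-release buprenorphine and meloxicam, an anti-inflammatory drug, and loss of the ovaries cannot be told apart from surgery and these drugs. The 4-month mice were older at collection than the other groups, and with no age-matched intact group the time since OVX and age cannot be told apart. The genotype label of 1 POA 14-day library reads only "14", and its group was taken from its title.

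Values are the deposited normalized expression on a linear scale, with a floor of 22.1 on which genes with no detectable transcript sit. The depth in reads is unknown, so no counting error can be given, and the unit allows neither a comparison of levels between genes nor one between regions. The lowest value of any of the 30 genes, 207 for *Tm7sf2* in 1 PH library, was 9.38 times the floor, and all 30 passed the filter on low values in both regions. The PH 14-day replicate 5 stood apart. Its sum over all entries was 1.45 times the median library, where the others lay between 0.887 and 1.09 times, and it had a weight of 0.785 on the surrogate variable (SV1, the covariate of the fits, estimated from the values) against 0.194 or less in every other PH library. In the POA, SV1 separated the labeled batches, with the batch 1 libraries between 0.186 and 0.352 and those of batch 2 between -0.322 and -0.125. The labels place the libraries in 2 batches, both of which hold every group. Defining markers of neurons, astrocytes, oligodendrocytes and microglia were above the floor in every library. Nothing in the labels says whether a library pools mice, so *P* values measure the spread between these libraries, and in bulk tissue fewer cells of a type and less RNA per cell cannot be told apart.

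SREBPs bind sterol regulatory elements (SREs) next to CCAAT boxes and GC boxes, which are bound by NF-Y and Sp1, so the promoters of synthesis genes are shown before their values. RefSeq promoter windows of 300 bases, from 250 before to 50 after the start, were matched for 24 of the 30 genes. *Fdps*, *Fdft1*, *Sqle*, *Stard4*, *Npc1* and *Abcg1* had no entry. The 4 printed windows were read from the RefSeq table (GRCm38.p6), and each was found once, without a mismatch, in GRCm39, whose coordinates are given. *Hmgcs1* is shown because it alone matched the SRE pattern searched for, and *Idi1*, *Cyp51* and *Msmo1* were chosen after their values had been seen. Capitals mark SRE, CCAAT and GC box matches on either strand, 5′ to 3′ along the gene.
*Hmgcs1*, chr13:120151637-120151936, plus strand: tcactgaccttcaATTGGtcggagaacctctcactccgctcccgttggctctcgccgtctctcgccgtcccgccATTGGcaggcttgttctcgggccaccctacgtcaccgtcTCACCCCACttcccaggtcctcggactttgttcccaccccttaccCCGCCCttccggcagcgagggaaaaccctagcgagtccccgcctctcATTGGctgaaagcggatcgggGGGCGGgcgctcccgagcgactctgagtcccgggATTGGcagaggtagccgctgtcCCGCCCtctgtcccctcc
*Idi1*, chr13:8935392-8935691, plus strand: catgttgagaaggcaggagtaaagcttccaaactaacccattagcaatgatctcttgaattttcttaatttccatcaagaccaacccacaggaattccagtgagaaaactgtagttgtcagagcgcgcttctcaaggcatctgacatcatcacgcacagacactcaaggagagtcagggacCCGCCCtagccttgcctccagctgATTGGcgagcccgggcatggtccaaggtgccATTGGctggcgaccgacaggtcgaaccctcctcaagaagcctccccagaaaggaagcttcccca
*Cyp51*, chr5:4154648-4154947, minus strand: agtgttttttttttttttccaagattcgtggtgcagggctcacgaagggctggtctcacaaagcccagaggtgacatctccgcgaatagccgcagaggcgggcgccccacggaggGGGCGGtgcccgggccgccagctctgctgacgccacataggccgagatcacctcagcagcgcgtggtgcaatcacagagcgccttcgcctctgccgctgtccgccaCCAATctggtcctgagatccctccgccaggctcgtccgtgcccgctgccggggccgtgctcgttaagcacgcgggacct
*Msmo1*, chr8:65186563-65186862, minus strand: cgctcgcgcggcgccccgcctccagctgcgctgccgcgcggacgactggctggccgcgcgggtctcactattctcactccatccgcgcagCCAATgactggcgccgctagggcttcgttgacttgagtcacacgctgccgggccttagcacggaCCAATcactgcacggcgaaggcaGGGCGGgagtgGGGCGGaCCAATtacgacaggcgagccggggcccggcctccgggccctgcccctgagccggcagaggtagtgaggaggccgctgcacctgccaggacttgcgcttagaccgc

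Both strands of 27025 windows, 1 per gene symbol, were searched for the letters of each motif. The SRE (TCACNCCAC) was in 1.22% of all windows and in 1 of the 24, *Hmgcs1*, where its first base lies at -137 from the start. A CCAAT box (CCAAT, or ATTGG on the other strand) was in 37.9% of all windows and in 20 of the 24, or 83.3%. A GC box (GGGCGG) was in 35.9% of all windows and in 21 of the 24, or 87.5%. An E-box (CACGTG) was in 7.24% of all windows and in 5 of the 24, *Hsd17b7*, *Sc5d*, *Scap*, *Insig1* and *Abca1*. No window of the 24 held an estrogen response element, written as GGTCA and TGACC 3 bases apart, which was in 0.0666% of all windows. No pair of these motifs overlaps in the printed windows. In the *Hmgcs1* window the SRE lies between CCAAT boxes at -176 and -45 and is followed by GC boxes at -92 and -24. *Msmo1* holds 3 CCAAT boxes, at -160, -96 and -55, *Idi1* holds CCAAT boxes at -45 and -14, and *Cyp51* holds 1 at -29. Each motif was searched as a fixed pattern, so elements that differ from it were missed, and a window without a match may hold one. These matches are letters in a window and say nothing of binding in these mice.

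In the PH, the synthesis enzymes lay near the intact level at 14 days. None of the 30 genes was called at an adjusted *P* under 0.05 by limma, where 0% of the 21998 genes tested were. At the unadjusted threshold of 0.05, 1 of the 30 was lower, against 1.47% of all genes, and 0 were higher, against 1.57%. Of the 19 enzymes, 14 lay below zero and 5 above, with a median log2 fold change of -0.05, and the median over the 30 was -0.04. In batch 1 alone the direction turned, with 18 of the 30 genes above zero, 8 of the 19 enzymes below and a median over the 30 of 0.0146, whereas in batch 2 alone 22 of the 30 lay below and the median was -0.082. Over all genes tested, the medians of the 6 comparisons lay between -0.01 and 0.

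The gene lower at that threshold was *Hsd17b7*, which reduces the 3-keto group after demethylation. It measured 1475, 1393, 1543 and 1253 in the intact PH libraries and between 1036 and 1339, with a median of 1206, at 14 days, so that 4 of 6 lay under every intact library. Its log2 fold change was -0.26 (SE 0.099, adjusted *P* = 0.99989). *Lbr*, a sterol reductase that also binds the nuclear lamina, measured 712, 872, 693 and 703 intact and from 605 to 765 with a median of 629 at 14 days, a log2 fold change of -0.15 (adjusted *P* = 0.99989). *Npc1*, which carries cholesterol out of the lysosome, measured 3353, 3483, 3785 and 3615 intact and from 3554 to 4431 with a median of 3853 at 14 days, a log2 fold change of 0.13 (adjusted *P* = 0.99989). In both of these the groups overlapped.

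At 4 months in the PH, 18 of the 19 synthesis enzymes lay below the intact level, with a median log2 fold change of -0.15, and so did 24 of the 30 genes, with a median of -0.13. Before adjustment, at *P* under 0.05, 9 of the 30 were lower, against 3.12% of all genes, and 1 was higher, against 2.95%. None was called after adjustment, where 7 of the 21998 genes, or 0.0318%, were. By role, all 7 mevalonate enzymes lay below zero (median -0.15), all 3 enzymes of squalene and lanosterol formation did (median -0.22), and 8 of the 9 later enzymes did (median -0.09). The 5 SREBP control genes split into 2 above and 3 below (median -0.02), and the 3 efflux and removal genes into 2 above and 1 below (median 0.10).

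Within the mevalonate pathway, *Idi1*, which interconverts the isoprene building blocks, had the largest fitted difference. Its intact PH libraries measured 5717, 4078, 4475 and 3978, the 14-day libraries from 3663 to 5190 with a median of 4826, and the 4-month libraries from 2485 to 4985 with a median of 3591. Of the 6 4-month libraries, 5 lay under every intact one. Against intact mice the 4-month log2 fold change was -0.36 (SE 0.13, adjusted *P* = 0.645). *Mvd*, which decarboxylates mevalonate diphosphate, measured 535, 550, 754 and 744 intact, from 480 to 784 with a median of 533 at 14 days, and from 451 to 623 with a median of 532 at 4 months. With the batches pooled its groups overlapped, and 3 of 6 4-month libraries lay under every intact one. Within each batch the 4-month values lay under both intact ones. They ranged from 451 to 493 against 535 and 550 in batch 1, and from 571 to 623 against 744 and 754 in batch 2. No share of all genes is given for such a split. By 4 months the log2 fold change was -0.30 (SE 0.11, adjusted *P* = 0.694).

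*Hmgcs1*, which makes the HMG-CoA that enters the pathway, measured 18364, 14809, 15532 and 14355 in the intact PH. At 14 days it ranged from 13066 to 18762 with a median of 16453, and at 4 months from 9978 to 18144 with a median of 12562. All but 1 of the 4-month libraries lay under every intact one, and the remaining one was near the highest. Against intact mice the 4-month log2 fold change was -0.25 (adjusted *P* = 0.778).

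*Sqle*, which oxidizes squalene and is a flux-controlling step, was the gene of the 30 whose 4-month and intact PH libraries did not overlap, where 0.395% of all genes lay wholly lower and 0.555% wholly higher. It measured 4444, 4121, 4372 and 4328 intact, or 4316 ± 139 (SD, n = 4), and from 3279 to 3920 with a median of 3792 at 4 months, or 3723 ± 244 (SD, n = 6). At 14 days it ranged from 3629 to 4949 with a median of 4150. Against intact mice the 4-month log2 fold change was -0.22 (SE 0.086, adjusted *P* = 0.715).

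*Cyp51*, the lanosterol demethylase, had the smallest *P* of the 30 in the PH. It measured 5451.2, 4639, 5123 and 4825 intact, from 4219 to 6818 with a median of 5029 at 14 days, and from 3274 to 4887 with a median of 4150 at 4 months. Apart from 1 library, the 4-month values lay under every intact one. Against intact mice the 4-month log2 fold change was -0.27 (SE 0.071, adjusted *P* = 0.40). The other genes at an unadjusted *P* under 0.05 were *Hsd17b7* (log2 fold change -0.24), *Dhcr7*, the last reductase of the pathway (-0.19), *Stard4*, a carrier of sterols between membranes (-0.20), and *Insig1* (-0.16), all lower, and *Npc1* (0.20, adjusted *P* = 0.806), which was higher. *Npc1* ranged from 3531 to 4840 with a median of 4029 at 4 months, and 4 of 6 libraries lay over every intact one.

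Of the SREBP control genes, *Insig1*, itself a target of the SREBPs, measured 6383, 5482, 5770 and 5881 in the intact PH, from 5073 to 6439 with a median of 5636 at 14 days, and from 4548 to 5833 with a median of 5167 at 4 months. *Srebf2*, which encodes the SREBP most tied to cholesterol synthesis, measured 6189, 7635, 9749 and 9546 intact, from 4865 to 9664 with a median of 7137 at 14 days, and from 6710 to 9410 with a median of 8510 at 4 months. Its groups overlapped throughout, and the low intact values were those of batch 1. *Cyp46a1* likewise overlapped in the PH, with 3219, 3972, 5016 and 4703 intact, from 2272 to 4550 with a median of 3772 at 14 days and from 3273 to 4846 with a median of 3626 at 4 months.

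**Figure D1:**
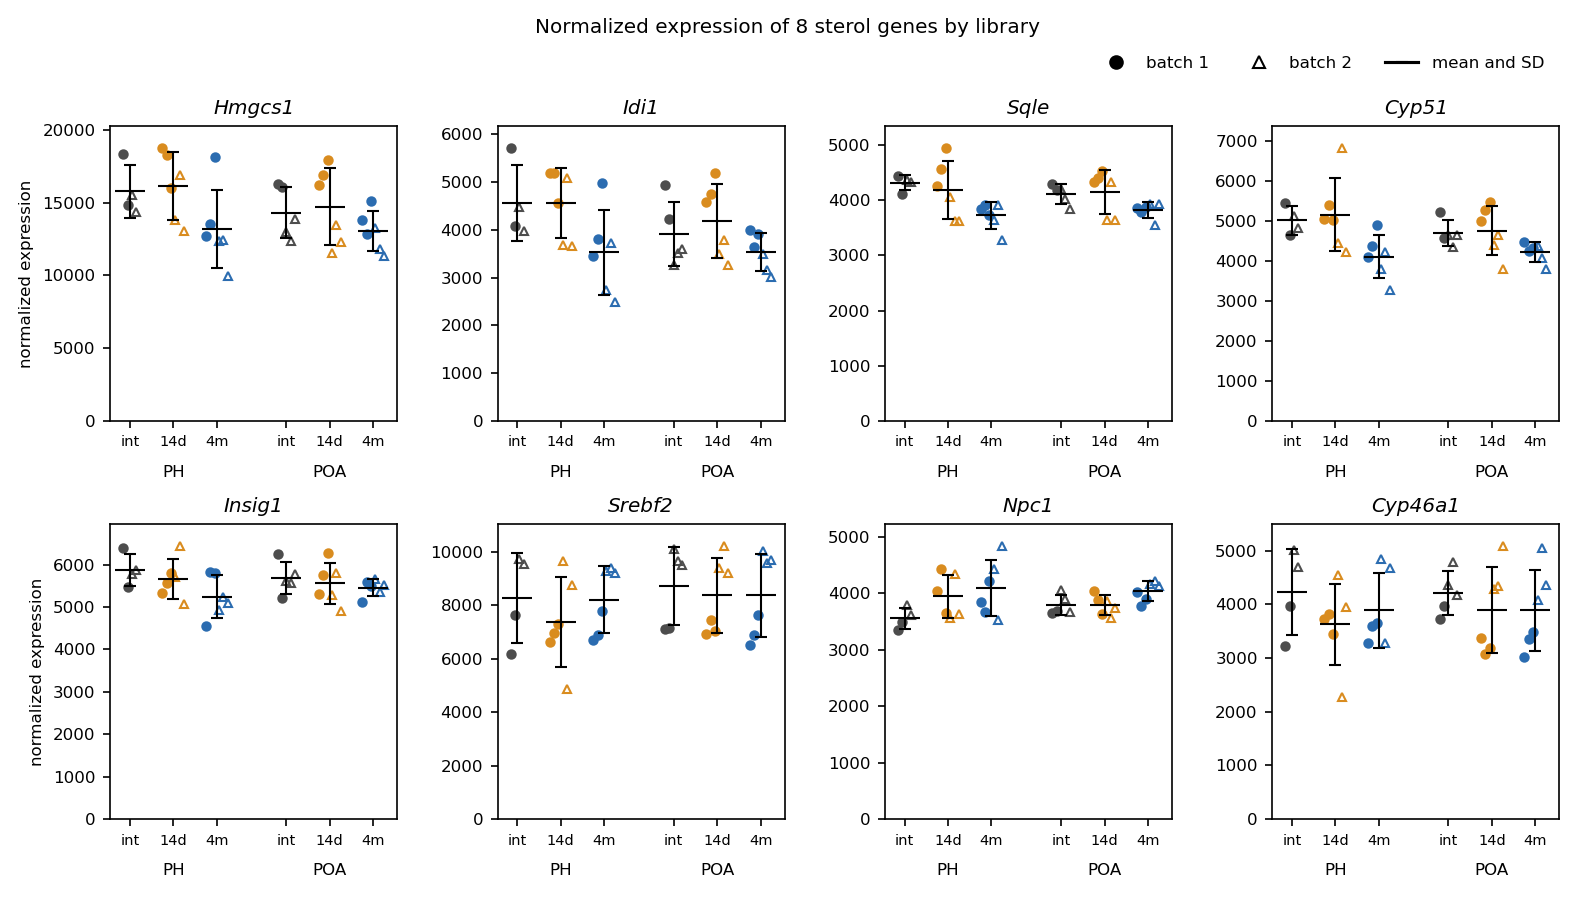
Normalized expression (vertical axes, linear, from 0) of 8 sterol genes in each library of the PH and POA, for intact mice (int), 14 days (14d) and 4 months (4m) after OVX. Filled circles are batch 1, open triangles batch 2, long bars the mean and short bars 1 SD. In the PH, the 6 *Sqle* values at 4 months, from 3279 to 3920, lie under all 4 intact ones, whereas those of *Srebf2* and *Cyp46a1* overlap.

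The count at 4 months rested in part on single libraries. Here and below, no share of all genes is given for fits with other libraries or covariates. The counts of such fits cannot be set against one. Without intact replicate 1, intact replicate 3, 4-month replicate 1 or 4-month replicate 6 of the PH, 6 of the 30 genes were at an unadjusted *P* under 0.05 in place of 10. Within a batch, the direction was like that of the pool, with 22 of the 30 genes below the intact level in batch 1 alone and 21 in batch 2 alone, but 0 and 1 of them passed the unadjusted threshold. With no covariate in place of SV1, 22 of the 30 lay below and 4 passed it, all lower. The log2 fold changes in batch 1 and batch 2 were -0.26 and -0.52 for *Idi1*, -0.18 and -0.41 for *Cyp51*, -0.16 and -0.27 for *Sqle*, and 0.19 in both for *Npc1*.

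Between 14 days and 4 months in the PH, 23 of the 30 genes and 17 of the 19 enzymes lay lower at 4 months, with medians of -0.11 and -0.16. Of the 30, 4 passed the unadjusted threshold lower, against 2.02% of all genes, and 0 higher, against 2.07%. None was called after adjustment, where 0.00909% of the genes were. The 4 were *Cyp51* (log2 fold change -0.19), *Acat2*, which condenses acetyl-CoA (-0.16), *Sc5d*, which introduces a ring double bond (-0.14), and *Mvd* (-0.24), all at an adjusted *P* of 0.9996.

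For *Acat2* the intact PH libraries measured 2180, 2334, 2298 and 2473, the 14-day libraries from 1676 to 2523 with a median of 2373, and the 4-month libraries from 1927 to 2477 with a median of 2218. *Acat2* lies beside a near-identical gene, *Acat3*, so how reads were split between them is uncertain. *Sc5d* measured 5944, 5174, 4967 and 4594 intact, from 4866 to 6902 with a median of 5603 at 14 days, and from 4231 to 5250 with a median of 4983 at 4 months. In both genes the 14-day and 4-month ranges overlapped.

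The count at the unadjusted threshold in this comparison depended on the PH 14-day replicate 5. That library held the lowest values of *Mvk* (294), *Tm7sf2* (207), *Dhcr7* (786), *Acat2* (1676), *Cyp46a1* (2272) and *Srebf2* (4865) and the highest of *Cyp51* (6818), *Sc5d* (6902) and *Scap* (4762) among the 14-day PH libraries. Without it, 9 of the 30 genes lay lower and 1 higher at an unadjusted *P* under 0.05, with no share of all genes given beside these counts. The median was -0.11 and 23 of the 30 lay lower both with and without this library. Without 14-day replicate 3, 14-day replicate 4 or 4-month replicate 1, 2 of the 30 passed the unadjusted threshold, all lower. With no covariate in place of SV1, 16 of the 30 lay lower and the median was -0.03.

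**Figure D2:**
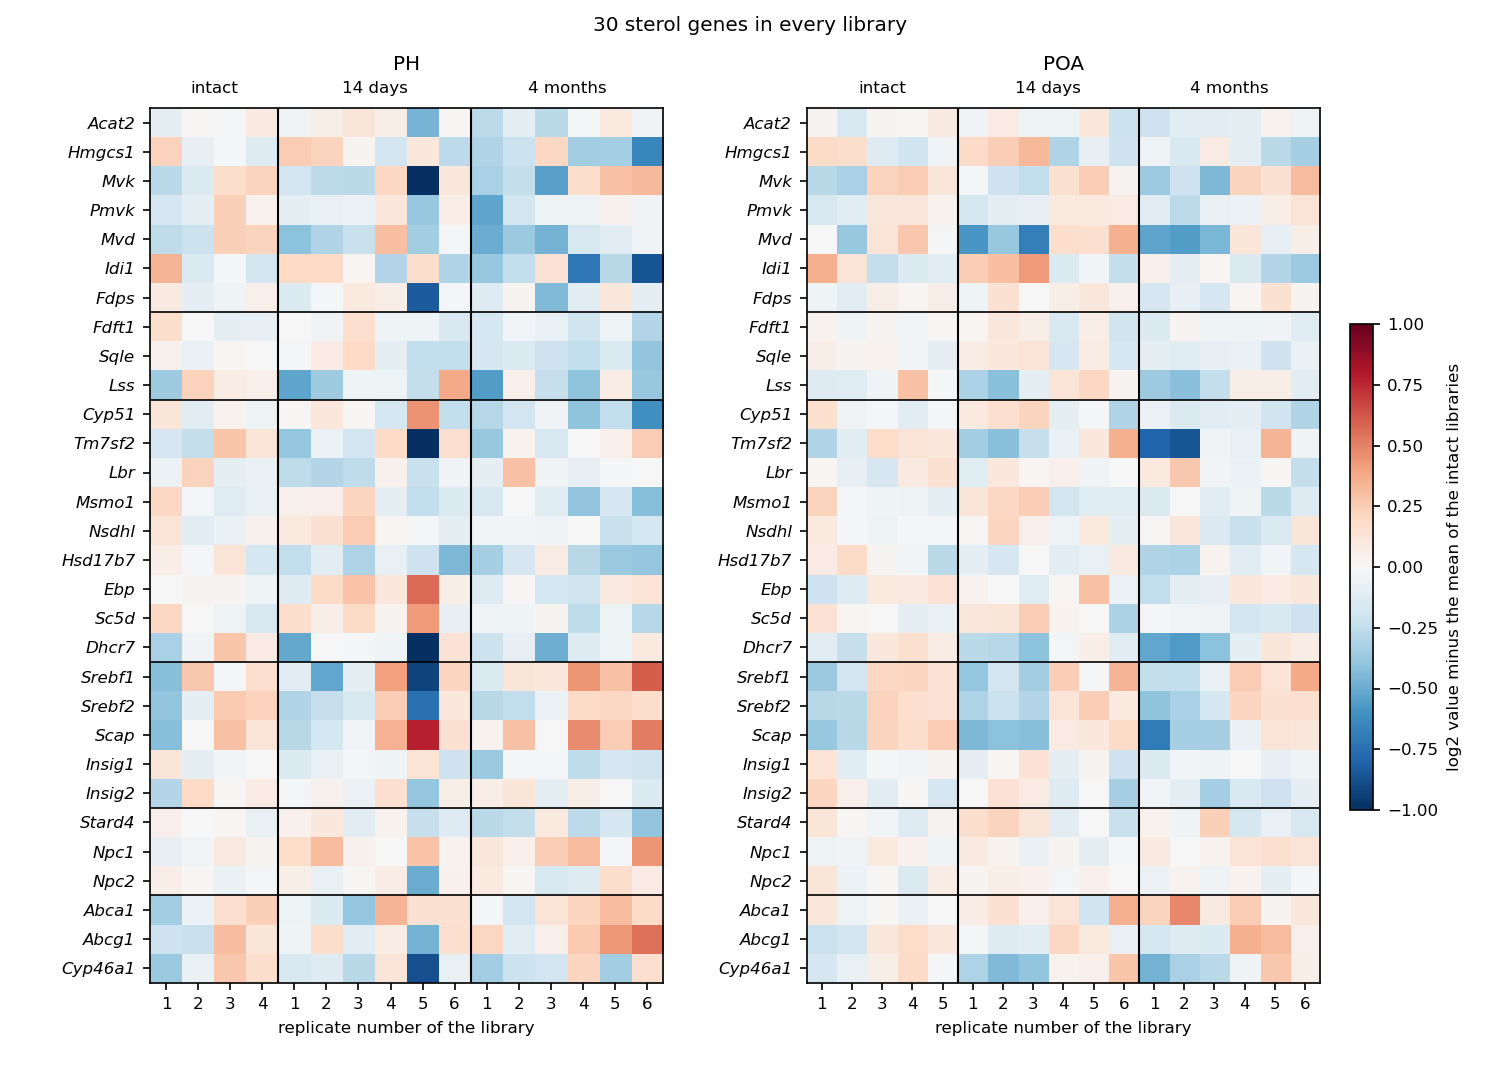
Log2 value of each of the 30 genes (rows, ordered by role) in each library (columns, by group and replicate number) minus the mean of the intact libraries of that region. Colors end at -1 and 1, beyond which *Mvk*, *Tm7sf2* and *Dhcr7* fall in the PH 14-day replicate 5. Most enzymes are blue at 4 months in both regions, and *Srebf2* and *Scap* follow the batch in the POA.

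In the POA at 14 days the genes lay on both sides of the intact level, 13 of the 30 above and 17 below, with a median of -0.01 over the 30 and over the 19 enzymes. At an unadjusted *P* under 0.05, 0 were higher, against 2.84% of all genes, and 0 lower, against 3.3%. None was called after adjustment, where 1 of 21366 genes, or 0.00468%, was. The smallest *P* values were those of *Dhcr7* (log2 fold change -0.11, adjusted *P* = 0.827), *Fdps*, which makes farnesyl diphosphate (0.07, adjusted *P* = 0.866), and *Scap* (-0.06, adjusted *P* = 0.894). *Dhcr7* measured 1567, 1441, 1822, 1898 and 1787 intact and from 1274 to 1776 with a median of 1485 at 14 days. *Fdps* measured 2298, 2192, 2481, 2401 and 2465 intact and from 2296 to 2630 with a median of 2452. With the batches pooled, both overlapped with the intact libraries. Within each batch, however, the 14-day *Dhcr7* values lay under all intact ones. They ranged from 1274 to 1405 against 1441 and 1567 in batch 1, and from 1564 to 1776 against 1787 to 1898 in batch 2. No share of all genes is given for such a split.

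At 4 months in the POA, 23 of the 30 genes and 17 of the 19 enzymes lay below the intact level, with medians of -0.07 and -0.12. Before adjustment, at *P* under 0.05, 8 of the 30 were lower, against 4.4% of all genes, and 1 was higher, against 4.1%. None was called after adjustment, where 20 of 21366 genes, or 0.0936%, were. No gene of the 30 had libraries wholly below or wholly above the intact ones, where 0.253% and 0.412% of all genes did. By role, 6 of 7 mevalonate enzymes (median -0.08), 3 of 3 enzymes of squalene and lanosterol formation (median -0.11) and 8 of 9 later enzymes (median -0.14) lay below zero, beside 3 of 5 SREBP control genes (median -0.07).

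*Idi1*, *Cyp51* and *Hmgcs1* had the smallest *P* values of the 30 here. *Idi1* measured 4932, 4223, 3271, 3513 and 3595 in the intact POA, from 3270 to 5195 with a median of 4188 at 14 days and from 3004 to 3999 with a median of 3567 at 4 months. These groups overlapped, with 2 of 6 4-month libraries under every intact one, and the intact values of batch 1 were the 2 highest. With SV1 in the fit, the 4-month log2 fold change was -0.21 (SE 0.055, adjusted *P* = 0.22).

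*Cyp51* measured 5220, 4572, 4647, 4337 and 4637 in the intact POA, from 3787 to 5454.2 with a median of 4812 at 14 days, and from 3788 to 4479 with a median of 4276 at 4 months. There 4 of 6 4-month libraries lay under every intact one, and the log2 fold change was -0.19 (SE 0.057, adjusted *P* = 0.306). *Hmgcs1* measured 16289, 16061, 12988, 12384 and 13870 intact, from 11540 to 17919 with a median of 14830 at 14 days, and from 11307 to 15086 with a median of 13061 at 4 months. Its groups overlapped, and the log2 fold change was -0.19 (SE 0.06, adjusted *P* = 0.326).

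The other genes lower at an unadjusted *P* under 0.05 were *Sc5d* (log2 fold change -0.14), *Insig2* (-0.18), *Msmo1*, which oxidizes the 4-methyl groups (-0.15), *Dhcr7* (-0.16) and *Sqle* (-0.12), at adjusted *P* values between 0.439 and 0.522. *Sqle* measured 4285, 4192, 4205, 4030 and 3849 intact, from 3640 to 4523 with a median of 4325 at 14 days and from 3555 to 3935 with a median of 3872 at 4 months. The 4-month libraries reached past the lowest intact value and stayed under the other 4. *Abca1*, which exports cholesterol to apolipoproteins, was the gene higher at 4 months, with a log2 fold change of 0.19 (adjusted *P* = 0.553). It measured 2970, 2653, 2765, 2627 and 2745 intact, from 2394 to 3512 with a median of 2960 at 14 days and from 2798 to 3839 with a median of 3092 at 4 months, so that 4 of 6 4-month libraries lay over every intact one.

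*Insig1* in the POA measured 6241, 5220, 5605, 5573 and 5787 intact, from 4912 to 6269 with a median of 5527 at 14 days and from 5129 to 5669 with a median of 5510 at 4 months. *Srebf2* measured 7109, 7166, 10124, 9667 and 9525 intact, from 6943 to 10224 with a median of 8334 at 14 days and from 6527 to 10021 with a median of 8596 at 4 months. *Cyp46a1* measured 3730, 3979, 4367, 4800 and 4169 intact, from 3084 to 5090 with a median of 3833 at 14 days and from 3021 to 5054 with a median of 3777 at 4 months. None of these 3 genes separated the groups.

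Without intact replicate 1 of the POA, 5 of the 30 genes were at an unadjusted *P* under 0.05 at 4 months in place of 9. With no covariate, and thus no term that separates the batches, 25 of the 30 lay below zero, and 1, which was higher, passed the unadjusted threshold. In batch 1 alone and in batch 2 alone, 23 of the 30 genes lay below the intact level each time. Of these tests 7 passed the unadjusted threshold in batch 1 and 0 in batch 2. The log2 fold changes in batch 1 and batch 2 were -0.25 and -0.11 for *Idi1*, -0.17 and -0.16 for *Cyp51*, -0.22 and -0.11 for *Hmgcs1*, -0.14 and -0.08 for *Sqle*, and 0.23 and 0.15 for *Abca1*.

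**Figure D3:**
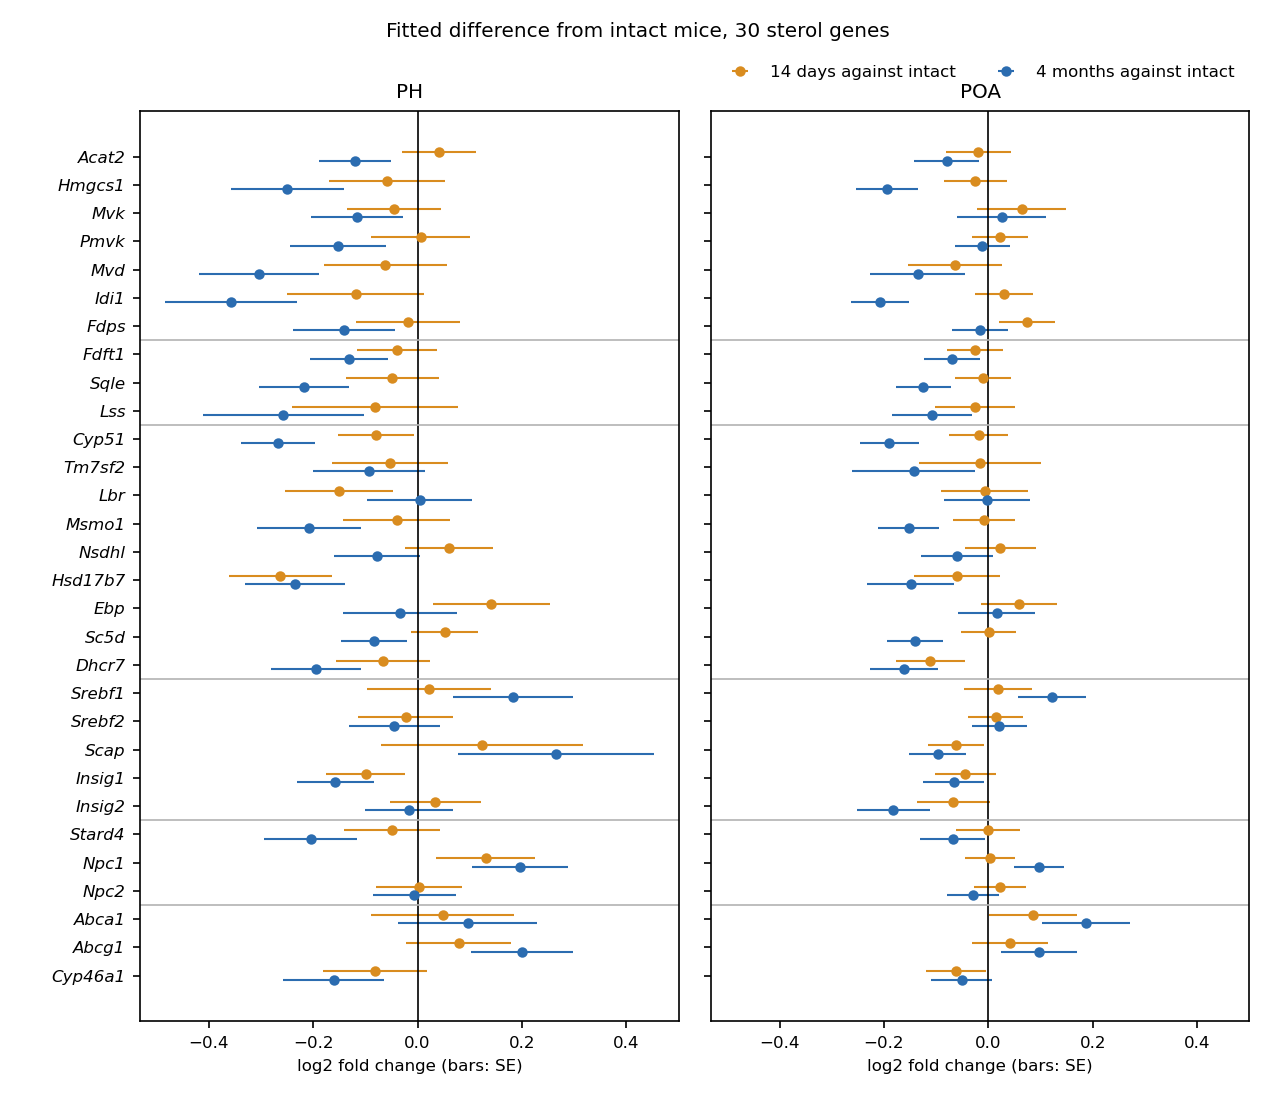
Fitted log2 fold change against intact mice (horizontal axis, bars 1 SE) of the 30 genes at 14 days (orange) and 4 months (blue) in the PH and POA, with gray lines between roles. Of the 19 enzymes, 18 in the PH and 17 in the POA lie left of zero at 4 months, and both times share the intact libraries. No gene passed the adjusted threshold.

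Between 14 days and 4 months in the POA, 23 of the 30 genes and 18 of the 19 enzymes lay lower at 4 months, with medians of -0.06 and -0.08. At the unadjusted threshold of 0.05, 6 of the 30 were lower, against 2.64% of all genes, and 0 higher, against 2.47%. None was called after adjustment, where 0.0281% of all genes were. *Idi1* had the smallest *P* of the 30 in any comparison, with a log2 fold change of -0.24 (SE 0.052, adjusted *P* = 0.291). *Cyp51* (-0.17, adjusted *P* = 0.735) and *Hmgcs1* (-0.17, adjusted *P* = 0.811) followed, with *Sc5d* (-0.14), *Msmo1* (-0.14) and *Sqle* (-0.11). Without 14-day replicate 6, 9 of the 30 were lower and 2 higher at the unadjusted threshold, and with no covariate 0 passed it in either direction. The 2 comparisons against intact mice share the intact libraries, and those of 4 months share the 4-month libraries, so the fold changes of a gene in them are not independent.

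The mean of the 19 enzymes, taken in each library as the log2 difference from the intact mean, was computed from the values without SV1. In the PH it was 0 ± 0.04 (SD, n = 4) in intact mice, -0.074 ± 0.11 (SD, n = 6) at 14 days and -0.16 ± 0.075 (SD, n = 6) at 4 months. The lowest 14-day value, -0.27, was that of replicate 5. The 4-month values, from -0.26 to -0.069, lay under all 4 intact ones, from -0.045 to 0.052. In the POA it was 0 ± 0.041 (SD, n = 5) intact, -0.016 ± 0.047 (SD, n = 6) at 14 days and -0.11 ± 0.074 (SD, n = 6) at 4 months, and there the 4-month values, from -0.21 to -0.034, overlapped with intact ones, from -0.07 to 0.04. Within batches the 4-month mean lay below the intact one in each case, at -0.17 against -0.025 and at -0.16 against 0.025 in PH batch 1 and batch 2, and at -0.17 against -0.031 and -0.049 against 0.021 in the POA.

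**Figure D4:**
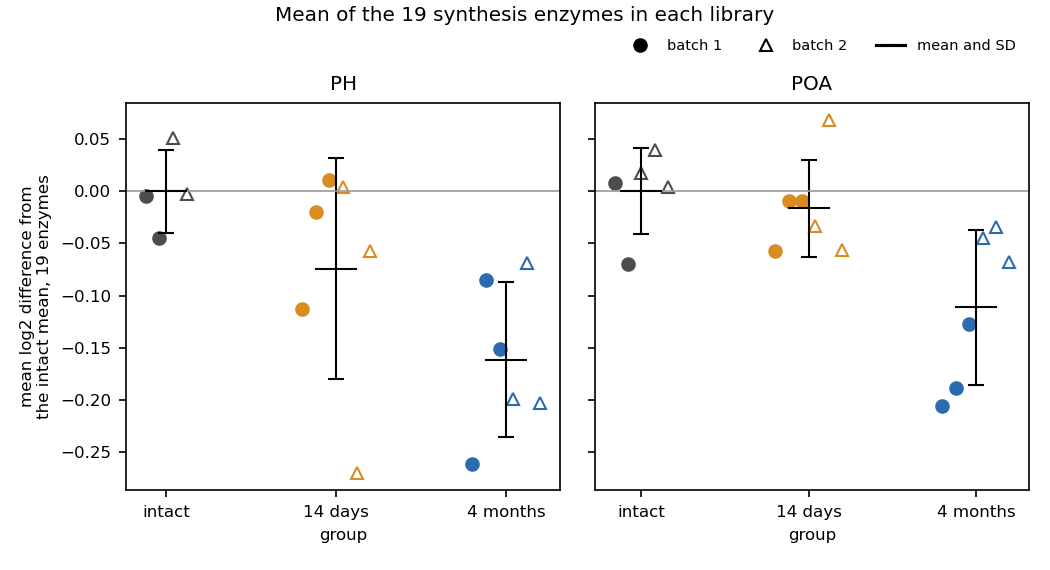
Mean log2 difference of the 19 synthesis enzymes from the intact mean (vertical axis) in each library of the PH and POA. Filled circles are batch 1, open triangles batch 2, and bars the mean and 1 SD of a group. In the PH the 4-month libraries, between -0.26 and -0.069, lie under the 4 intact ones, and in the POA they overlap.

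Whether the PH and POA differed in these genes was tested as an interaction in all 33 libraries, with batch within region as a covariate. The study's methods describe PH and POA as taken from the same females, but no label links the libraries of a mouse. The fit had no term for the mouse, so libraries of the 2 regions may not be independent. None of the 30 genes was called at 14 days, where 0.00452% of 22141 genes were, or at 4 months, where 0.00903% were. At an unadjusted *P* under 0.05 in either direction, 0 of the 30 passed at 14 days, against 2.42% of all genes, and 1 at 4 months, against 3.14%. That gene was *Scap*, with a difference of 0.41 (SE 0.14, adjusted *P* = 0.9997) between the 4-month log2 fold changes of the PH and the POA. *Scap* measured 2072, 2791, 3419 and 3040 in the intact PH and from 2796 to 3968 with a median of 3373 at 4 months, whereas in the POA it measured 2737, 2942, 4164, 4028 and 4260 intact and from 2201 to 3908 with a median of 3117 at 4 months. The groups overlapped in both regions, and at 14 days *Scap* ranged from 2298 to 4762 with a median of 2909 in PH libraries and from 2605 to 4073 with a median of 3228 in the POA.

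In the POA, 6 of the 30 genes, *Mvk*, *Pmvk*, *Srebf1*, *Srebf2*, *Scap* and *Cyp46a1*, lay wholly higher in batch 2, where 6.26% of all genes did, and 0 lay wholly lower, where 6.4% did. In the PH, *Abca1* lay wholly higher in batch 2, where 0.323% of all genes did, and 0 of the 30 wholly lower, where 0.223% did. *Hmgcs1* and *Idi1* lay lower in batch 2, with log2 differences of -0.27 and -0.33 (PH) and of -0.31 and -0.37 (POA). Each batch holds every group, and the within-batch values stand beside the comparisons above.

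Some of the enzymes also varied together from library to library within a group, and others ran against each other. After group and batch means were removed, the mean Pearson r over the 171 pairs of the 19 enzymes was 0.12 over the 16 PH libraries and 0.16 over the 17 POA libraries, where the mean over pairs of all genes was 0.00052 and 0.0031. Without PH 14-day replicate 5 it was 0.17 over 15 libraries. Of the 171 pairs, 108 lay above zero in the PH, 112 in the POA and 120 in the PH without that replicate. *Hmgcs1* and *Idi1* had an r of 0.90 in the PH and 0.75 in the POA, *Idi1* and *Cyp51* of 0.87 and 0.82, and *Cyp51* and *Sc5d* of 0.85 and 0.82. *Sqle* and *Msmo1* had an r of 0.70 and 0.62. These PH values include replicate 5, and the pairs are not given without it. Over all PH libraries, the r with the mean of the 19 was -0.20 for *Hmgcs1*, -0.17 for *Idi1*, -0.42 for *Cyp51* and -0.48 for *Sc5d*. Without replicate 5 it was 0.15, 0.36, 0.53 and 0.43. In the PH the enzymes formed 2 blocks that ran against each other, for example *Mvk* and *Cyp51* with an r of -0.84 (0.31 in the POA), which are the genes that replicate 5 held at opposite ends. Points in these correlations share library, tissue piece and normalization, and no test was made.

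*Insig1*, which was not among the 19, followed their mean with an r of 0.76 in the POA and 0.77 in the PH without replicate 5, but of 0.06 with it. *Srebf2* had an r of 0.67 in the POA and 0.75 in the PH, which was 0.29 without replicate 5. *Npc1* had an r of 0.05 and -0.41 without replicate 5, and *Abca1* of -0.58 and -0.24. Of genes outside the 30, those most like the enzyme mean in both regions included *Zfp57* (0.74 in the PH and 0.73 in the POA), *Rims4* (0.70 and 0.73), *Cwc25* (0.76 and 0.69), *Emc9* (0.72 and 0.69), *Pex5* (0.69 and 0.77) and *Efhd2* (0.73 and 0.69). In the PH without replicate 5 these values lay between -0.01 for *Rims4* and 0.58 for *Cwc25*, except for *Emc9* at 0.74.

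**Figure D5:**
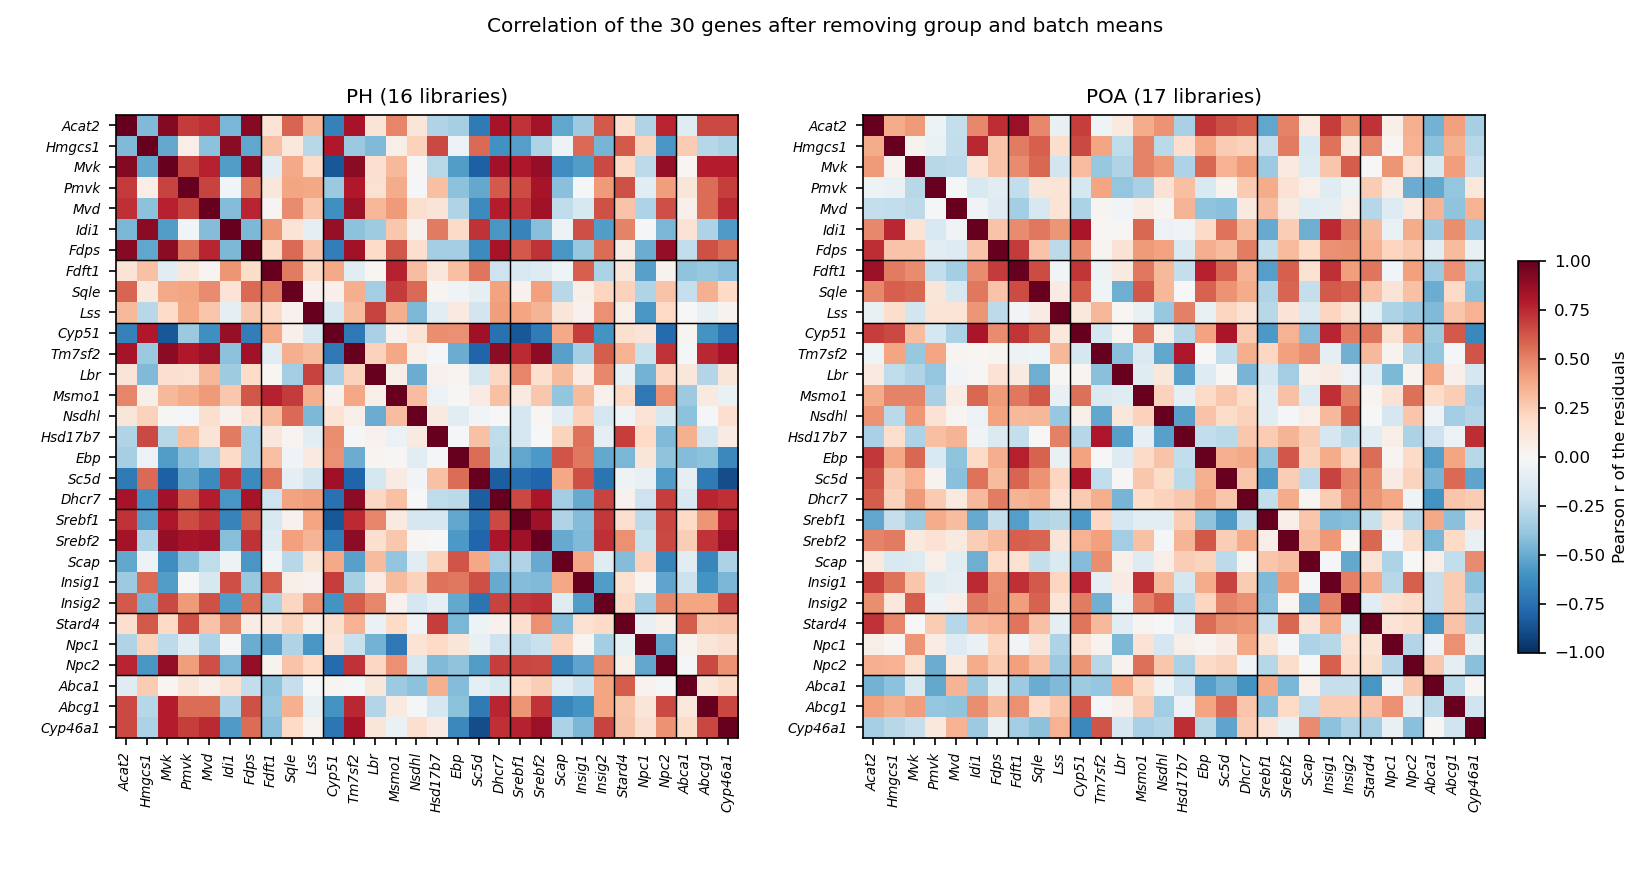
Pearson r between the 30 genes (rows and columns, ordered by role) after group and batch means were removed, over 16 PH and 17 POA libraries. Red is positive and blue negative. *Hmgcs1*, *Idi1* and *Cyp51* are red with each other in both regions, and the 2 opposed blocks of the PH carry the genes that 14-day replicate 5 held high or low.

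Around these 30 genes, 57 related genes were listed by role. At 4 months, 10 genes of fatty acid synthesis and desaturation, which share SREBP control, lay 4 above and 6 below the intact level in the PH (median -0.10, 1 lower at an unadjusted *P* under 0.05) and 1 above and 9 below in the POA (median -0.09, 4 lower), where 3.12% and 4.4% of all genes lay lower at that threshold. Of 10 genes of SREBP processing and sterol-regulated degradation, 7 lay below in the PH (median -0.07) and 9 in the POA (median -0.08), with 1 lower in each at that threshold, beside the same shares of all genes. The 7 genes of the isoprenoid branches gave 6 below in the PH and 5 in the POA, with medians of -0.08 and -0.03. The 16 genes of uptake and transfer had medians of 0.03 and -0.04, the 5 receptors and targets of the LXR pathway 0.01 and 0.06, the 4 genes of sterol esters 0.04 and -0.11, and the oxysterol and bile acid enzymes 0.05 and -0.02, from 4 genes that passed the PH filter and 5 that passed the POA filter.

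None of the 57 was called in any of the 6 comparisons. The smallest *P* values were at 4 months against intact mice. *Aacs*, which activates acetoacetate for lipid synthesis, lay lower in the PH (log2 fold change -0.34, adjusted *P* = 0.307), with libraries from 1024 to 1498 against 1123 to 1879. *Osbpl8*, an oxysterol-binding protein, had -0.29 there (adjusted *P* = 0.498). *Mylip*, an LXR-induced ubiquitin ligase, had 0.31 (adjusted *P* = 0.456), with 4-month libraries from 673 to 888 wholly over the intact ones, from 582 to 667. In that comparison 0.555% of all genes lay wholly higher, and how many of the 57 did is not given. In the POA, *Fads1*, a fatty acid desaturase, had -0.17 (adjusted *P* = 0.259), and *Ch25h*, which makes 25-hydroxycholesterol, 0.64 (adjusted *P* = 0.289), from 38 to 70.2 against 22.7 to 46.8 and thus near the floor of 22.1.

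Markers of some cell types, but not of all, also lay apart from the intact level. All 10 microglial markers lay above the intact level at 14 days (medians of 0.11 for PH and 0.14 for POA libraries) and at 4 months (0.23 and 0.15). After adjustment 1 of them was called, in the POA at 4 months, where 0.0936% of all genes were. Summed, they ranged from 15906 to 17867 in the intact PH, from 17054 to 18894 at 14 days and from 17808 to 20827 at 4 months, and in the POA from 16067 to 18113, from 18217 to 19787 and from 17916 to 21166.

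Of 10 oligodendrocyte markers, 10 in the PH and 9 in the POA lay below the intact level at 14 days (medians -0.13 and -0.17), and 8 in each did at 4 months (-0.13 and -0.14). From 14 days to 4 months their medians were -0.04 (PH) and 0.08 (POA), where the enzymes had -0.16 and -0.08. Their sum ranged from 216544 to 221245 in the intact PH, from 199091 to 221158 at 14 days and from 181048 to 241988 at 4 months, and in the POA from 207297 to 264090, from 167535 to 234698 and from 189943 to 238547. Neuron markers had medians between -0.09 and 0.01 and astrocyte markers between -0.03 and 0.05 over the 6 comparisons, and endothelial markers at 4 months had 0.21 (PH) and 0.14 (POA). None of the markers of neurons, astrocytes, oligodendrocytes and microglia was at the floor. The part of these cell types in the values of the sterol genes was not tested.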

How the data were processed

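RNA from flash-frozen PH and POA was made into stranded mRNA libraries by the authors, pseudoaligned with kallisto to the mouse transcriptome (mm39 per the labels), summarized with tximport and tested with DESeq2, with 1 surrogate variable (smartSVA) as covariate. The deposited values are a normalized signal in linear units and are not counts. How its values were scaled is not given in the sources used here.

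Titles gave each sample its region and time. Entries that carry no gene name (1259) were dropped, and log2 values were taken without a pseudocount. Genes entered the test with values of 2 times the floor or more in 4 PH or 5 POA libraries. The study's count model with SV1 was replaced by limma (version 3.58.1, with statmod 1.5.0 and R 4.3.3, trend and robust), fitted to the 3 groups of a region and SV1, which was estimated anew in 5 rounds. Regions were compared by an interaction in 1 fit of 33 libraries with batch within region. The Benjamini-Hochberg adjustment of limma *P* values ran over every gene in a test, with adjusted *P* under 0.05 as the call. At that threshold the study reported more genes, counting protein-coding ones alone, in each comparison within a region than were called here. A gene that was not called here is thus not shown to be unchanged. The fits were tested on simulated data. Figures were drawn with Python 3.11.15 and matplotlib 3.10.9.

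Values by library are given for called genes, for the 3 genes of the 30 with the smallest unadjusted *P* in each comparison and for *Hmgcs1*, *Idi1*, *Sqle*, *Insig1*, *Srebf2* and *Cyp46a1*, and of the related genes the 5 with the smallest *P* are named. The 30 genes, the lists and the tests were chosen with earlier results of these data known. Alternatives changed the covariate, the batch, the filter, a pseudocount of 50, the variance model, the groups fitted and the libraries included. Genes of the pathway that are not named are not reported here.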

Additional observations from a re-analysis of the deposited data

Results flagged for a closer look

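Of 192 groups of 4 to 6 libraries that were checked for a single library far from the rest, 9 held one, and chance gives about 1 in 20. The PH 14-day replicate 5 accounts for 3 of them, with *Acat2* at 1676 where the nearest library had 2262, *Fdps* at 1366 against 2211 and *Npc2*, a lysosomal sterol carrier, at 2113 against 2818. *Lbr* stood high in PH intact replicate 2, at 872 against 712, and in PH 4-month replicate 2, at 907 against 739. In the POA, *Lss*, the lanosterol synthase, stood at 2525 in intact replicate 4 against 2044, and intact replicate 1 was high in *Msmo1* at 6008 against 5070 and in *Nsdhl* at 1373 against 1274. *Ebp*, the sterol isomerase, stood at 772 in POA 14-day replicate 5 against 645. Between the regions, 0 of the 30 genes differed by the interaction at an adjusted *P* under 0.05 in limma, and 1, *Scap*, at an unadjusted *P* under 0.05.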

How the results depend on the processing

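None of the 30 genes was called under any of 29 alternatives for each of the 6 comparisons by limma, or under 35 for each interaction. At an unadjusted *P* under 0.05 the counts ranged from 0 to 1 at 14 days and from 0 to 13 at 4 months against intact PH, and from 2 to 11 between those times. In the POA they ranged from 0 to 3, from 0 to 11 and from 0 to 11. These counts were added after the data had been seen, and no share of all genes is given beside them. The median over the 30 genes stayed between -0.16 and -0.091 at 4 months against intact mice in the PH. In batch 2 alone, the PH median of 4 months against 14 days was 0.0047, *Lbr* at 14 days against intact lay at 0.0161 and *Acat2* at 4 months against 14 days at 0.146, and in batch 1 alone the medians at 14 days were 0.0146 (PH) and 0.0561 (POA); the cause was not tested. Single-batch fits rest on fewer libraries.

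With the replicate block in place of SV1, 0 genes were called in any comparison. At an unadjusted *P* under 0.05 they numbered 3 (PH) and 7 (POA) at 4 months against intact mice, 0 and 3 at 14 days, and 6 and 3 between the times. Whether the replicate numbers pair the libraries could not be told, because number and batch go together. The correlation of deviations was over 0.1 in 9 of 14 same-number pairs (PH) and 14 of 16 (POA), of which 12 and 14 share a batch. Among pairs of unlike number it was over 0.1 in 20 of 70 and 32 of 80, of which 30 and 34 share a batch. Of the libraries, 6 of 16 and 5 of 17 correlated best with their own number. The unknown depth limits all values, because counting error cannot be separated from the spread between libraries.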
